A study of Homo sapiens with 6 samples.

Results

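APOB is the gene of apolipoprotein B, and its positions were examined in Nm-mut-seq data of chromatin-associated RNA (caRNA). The RNA came from HepG2, a cell line grown from a human liver cancer. In Nm-mut-seq an excess of dATP makes reverse transcriptase insert A opposite a 2′-O-methylated guanine, adenine or cytosine, and the base is then read as T. RNA of 3 biological replicates was reverse transcribed under imbalanced dNTP, which is dATP at 1 mM with the remaining dNTPs at 2 µM, and under balanced dNTP, where all were at 1 mM. The ligated RNA of each replicate was split between both reactions, so that the balanced dNTP library of a number is the input of the imbalanced dNTP library of that number. All 6 libraries come from the same untreated cell line, with ribosomal RNA depleted.

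The positions of APOB were taken as all listed positions on the minus strand of chromosome 2 between 21001429 and 21044073 (hg38). They numbered 6226 of 176343 under imbalanced dNTP (3.53%) and 3276 of 246881 under balanced dNTP (1.33%), and 1079 of them were in both tables. No position was listed on the opposite strand of the gene in either table. APOB was chosen by its number of called sites in these libraries, so that its counts and mutation ratios between both conditions are a description. A listed position had a depth of at least 5 reads in every library and at least 3 reads with T in some library under imbalanced dNTP, or at least 1 under balanced dNTP. A position that is not listed therefore has no known value here.

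Apolipoprotein B is the structural protein of the lipoproteins that the liver and the intestine secrete. In the intestine, the cytidine deaminase APOBEC1, with a cofactor that binds the RNA 3′ of the target, converts a single cytidine of the mRNA to uridine. A glutamine codon becomes a stop codon, and a short protein is made. Human hepatocytes make the full-length protein. A deaminated cytidine is read as T whatever the dNTP, whereas misincorporation at a 2′-O-methylated cytidine depends on the excess of dATP.

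The reference transcript (ENST00000233242.5 of ENSG00000084674.15) has 29 exons and 28 introns. Exon 26 lies at 21005080 to 21012651, is 7572 nt long and makes up 53.6% of the mRNA of 14121 nt. The editing position was found in it by the in-frame CAA codon next to the mooring sequence. It is the cytosine at position 6666 of the mRNA, the first base of codon 2180 of the precursor protein. The sequence around it is shown because the results below ask whether it carried reads with T. It reads 5′ to 3′ on the transcript's strand, at chr2:21010313-21010342, with the target cytosine in capitals.
editing position: acatatatgataCaatttgatcagtatatt

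The sites of exon 26 with the highest mean mutation ratios, among called sites that 50 or more reads covered in each imbalanced dNTP library, were all guanines. Their contexts are shown because the base and the neighbours of called sites are described below. Each line runs from 10 nt before to 10 nt after the site, in hg38 on the minus strand, with the site in capitals.
guanine of codon 2401, chr2:21009657-21009677: tgatgatgctGtcaagaagct
guanine of codon 1440, chr2:21012540-21012560: attcagtcatGtagaaaaact
guanine of codon 3500, chr2:21006360-21006380: caaaggagatGtcaagggttc
guanine of codon 1932, chr2:21011062-21011082: gcaaattcctGttgaaagcag
guanine of codon 1465, chr2:21012463-21012483: gaccacagatGtctgcttcag
In all 5, the guanine stands between a T on either side, which is U in the RNA. Over the whole gene, 153 of 739 called sites were such guanines, so these 5 do not stand for all called sites.

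The depth over listed positions of all genes summed to 17063930 to 22485865 reads per library under imbalanced dNTP. Under balanced dNTP the sums were 22974020 to 34367262. APOB took 1.35%, 1.40% and 1.59% of this depth in replicates 1, 2 and 3 under imbalanced dNTP. It took 0.754%, 0.757% and 0.869% under balanced dNTP, where more positions of other genes were listed. The labels number the libraries of a group as replicates, which the study's methods call biological. With 3 pairs, the exact permutation p-values below mainly reflect whether the pairs agree in direction. The edgeR p-values take in the spread between libraries.

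Exon 26 was covered more deeply than the introns and less deeply than the other exons. Its median depth under imbalanced dNTP was 37, 34 and 49 reads in replicates 1, 2 and 3, over 1608 listed positions. The introns had 27, 24 and 37 reads over 2709 positions. The other exons had 65, 56 and 83 reads over 1909 positions. In every library the order of the regions was the same. The log2 ratio of exon 26 over introns was 0.45 ± 0.05 (SD, n = 3), which is 1.37-fold, with an exact paired permutation p of 0.25, the smallest that 3 pairs allow. Under balanced dNTP the log2 ratio was 0.58. When unlisted positions took the depth of the nearest listed one, it was 0.86. A listed position needs reads with T, so these medians leave out the least covered parts of the introns. In exon 26, 29.0% of the guanines, adenines and cytosines were listed, against 13.4% in the introns and 38.4% in the other exons.

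Along the transcript, the depth of exons fell from the 5′ side to the 3′ side. Exons 3, 4 and 5, which encode the N-terminal part of the protein, had median depths of 85, 89 and 86 reads in replicate 1 under imbalanced dNTP. Exon 26 had 37 and the last exon had 26. The fall was not steady, since exons 1 and 2 had 48.5 and 55.5 reads and exon 15 had 104. Across the 29 exons, Spearman's rho between depth and order was -0.64, -0.58 and -0.63 in replicates 1, 2 and 3, and -0.77, -0.75 and -0.71 under balanced dNTP. Across the 28 introns it was -0.44, -0.43 and -0.52 under imbalanced dNTP. Exons of a library share its reads and are not replicates, so no p is given. Each of the 28 introns had a lower median depth than both of its neighbouring exons in all 3 imbalanced dNTP libraries. The mean of the flanking exons was 1.79 to 6.44 times that of the intron, with a median of 3.01.

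**Figure D1:**
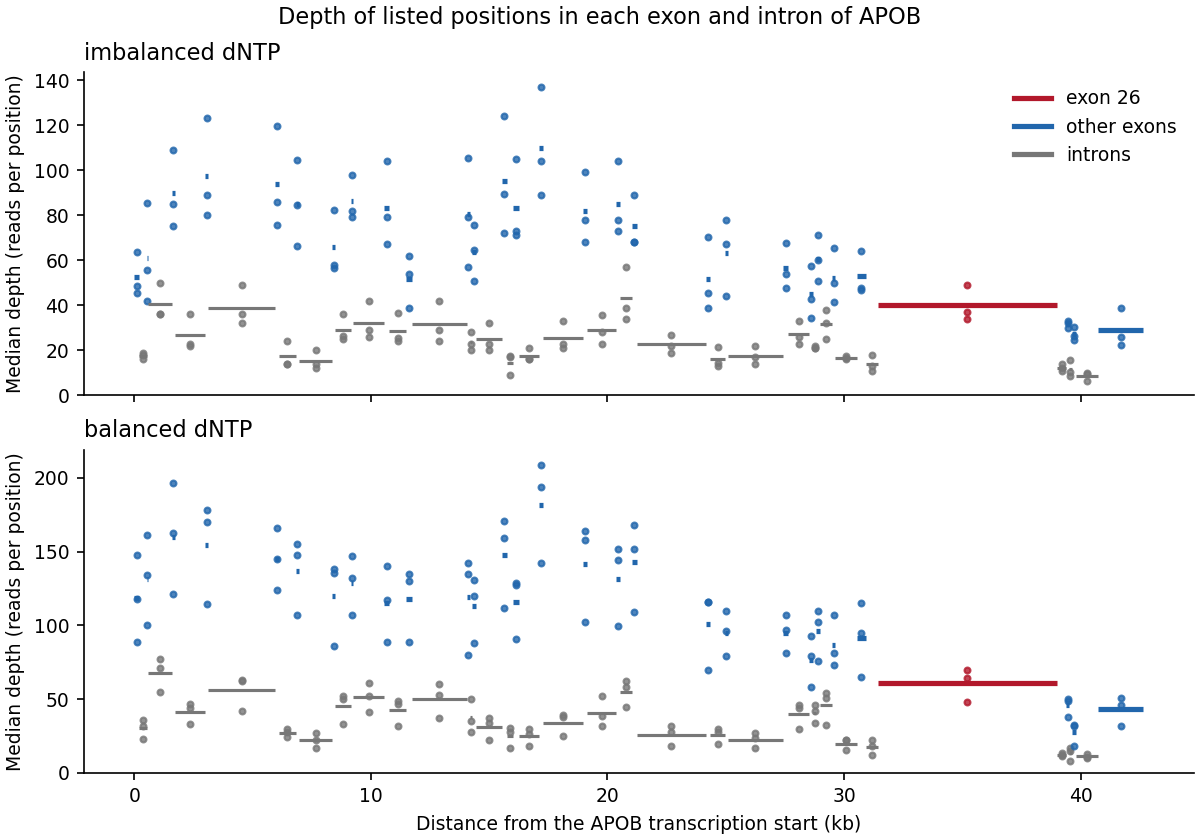
Median depth (reads per listed position) of each exon and intron of APOB against the distance from the transcription start in kb, for imbalanced (top) and balanced (bottom) dNTP. Points are the 3 replicates and bars are their mean, drawn over the length of the element; introns lie below their neighbouring exons, and exon 26 (37, 34 and 49 reads under imbalanced dNTP) lies below the exons on its 5′ side.

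Within exon 26 the depth fell as well. On the 5′ side of the editing position, 691 positions were listed and their median depth was 47, 44 and 62 reads. On the 3′ side, 916 were listed, with 30, 28 and 42 reads. The 5′ part was deeper in every library. Of the guanines, adenines and cytosines, 39.97% were listed on the 5′ side and 24.0% on the 3′ side.

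Where a position was in both tables, as 1079 were, reads with T were more frequent under imbalanced than under balanced dNTP in each replicate. They made up 5.47%, 5.57% and 5.46% of the summed depth under imbalanced dNTP. Under balanced dNTP they made up 0.611%, 0.664% and 0.587%. The conditions did not overlap. The difference was 4.88 percentage points ± 0.0246 (SD, n = 3 pairs), with an exact paired permutation p of 0.25. These positions were listed for their reads with T, so the difference describes the listing as well. Reads with another base than T or the reference made up 0.265% under imbalanced and 0.214% under balanced dNTP. At 5 positions of the gene the mutation ratio under balanced dNTP was at least 0.1. Such a position can be a genomic difference of the cell line, and they are given only as this count. Without them, reads with T made up 5.37% ± 0.0695 under imbalanced and 0.424% ± 0.0477 (SD, n = 3) under balanced dNTP.

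**Figure D2:**
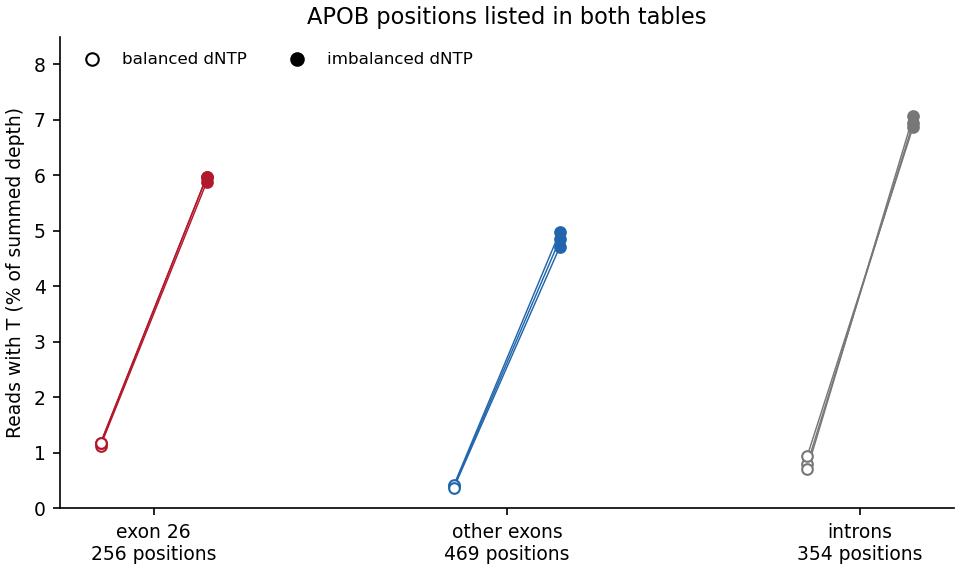
Reads with T, in percent of the summed depth, at APOB positions listed in both tables, for balanced (open) and imbalanced (filled) dNTP in exon 26, other exons and introns. Lines join the libraries of a replicate number; in every region all 3 imbalanced dNTP values lie above all 3 balanced dNTP values.

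The regions differed in the level under balanced dNTP. At the shared positions of exon 26 it was 1.16% ± 0.0271 (SD, n = 3), against 0.393% ± 0.0229 in the other exons and 0.808% ± 0.119 in the introns. Without the positions of high balanced ratio, exon 26 was at 0.520% ± 0.0492, the other exons at 0.310% ± 0.0281 and the introns at 0.683% ± 0.107. The value of exon 26 was thus more than 1.5 times lower without 2 of its 256 positions.

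Under imbalanced dNTP, the mutation ratio, summed over listed positions covered by 10 or more reads, was 5.77%, 5.92% and 5.77% in exon 26. It was 6.85%, 6.91% and 7.03% in the introns and 4.58%, 4.65% and 4.58% in the other exons. Exon 26 lay between both other regions in every library. Exon 26 minus introns was -1.11 percentage points ± 0.136, and exon 26 minus other exons was 1.22 ± 0.0423 (SD, n = 3), each with an exact paired permutation p of 0.25. This order was the reverse of the order of depth. At a minimum depth of 50 the differences were -0.547 ± 0.546, with replicate 2 turned (4.87% in exon 26 and 4.85% in introns), and 0.327 ± 0.268. Over called sites alone, exon 26 minus other exons was 2.61. When unlisted positions counted as 0 at the depth of the nearest listed one, both differences turned, to 0.577 and -0.287 percentage points. Among positions with 30 to 60 reads in every imbalanced dNTP library, an alternative chosen after the data were seen, exon 26 minus other exons also turned, to -0.432 percentage points, and exon 26 minus introns was -0.338.

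The mutation ratio of listed positions fell with depth in each region. Positions of exon 26 with a mean depth of 10 to 19 reads had 10.8% ± 0.116 reads with T, and those with 60 to 99 reads had 4.39% ± 0.220 (SD, n = 3). Introns went from 11.2% ± 0.199 to 5.12% ± 0.253, and other exons from 10.4% ± 2.61 to 4.52% ± 0.142. At 40 to 59 reads, the values were 5.57% ± 0.111 in exon 26, 5.53% ± 0.0670 in other exons and 5.65% ± 0.265 in introns. There the regions differed by less than the spread of the introns between replicates. At 60 to 99 reads, however, the introns were above exon 26 and the other exons in every library. The requirement of 3 reads with T sets a higher lowest ratio at low depth, and its part in the difference between regions was not tested beyond these values.

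**Figure D3:**
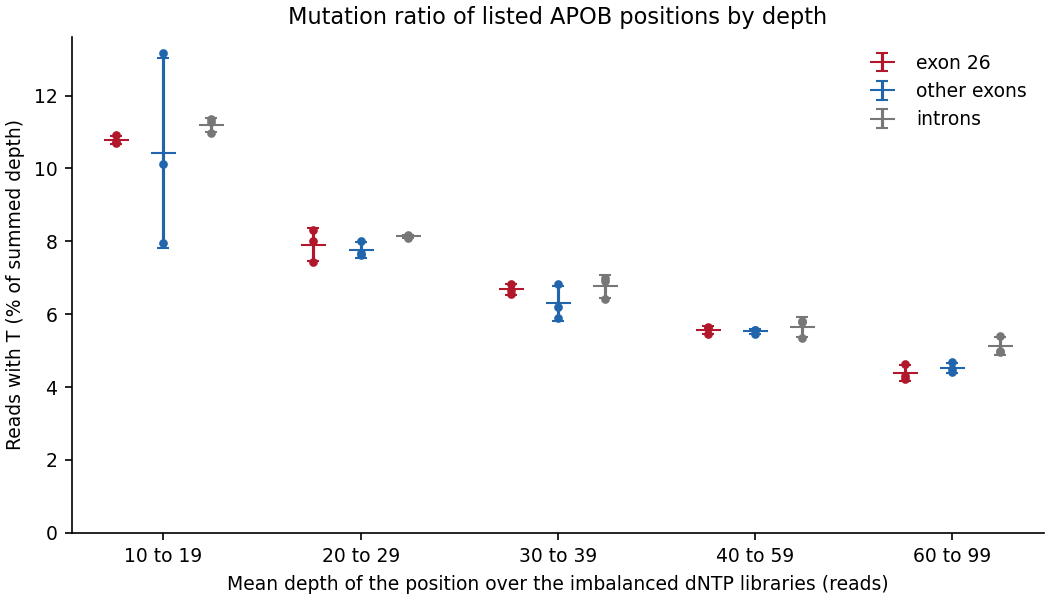
Reads with T, in percent of the summed depth, at listed APOB positions grouped by their mean depth over the imbalanced dNTP libraries, for exon 26, other exons and introns. Points are the 3 replicates, and bars are mean and SD; in each region the ratio falls as the depth rises, and at 40 to 59 reads the regions lie between 5.53% and 5.65%.

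Called sites were positions where every replicate had a depth of at least 10, 3 or more reads with T, and a mutation ratio over 3 times the ratio of its input. The latter was taken as 0 where the position was not listed under balanced dNTP. The study's further criterion on spike-in background was not applied, so these counts cannot be smaller than with it and may be much larger. Over all genes, 29651 of 110980 positions with a depth of at least 10 were called without it. The study applied it and reported far fewer sites, so many sites called here may not pass it. How many of those in APOB would pass was not tested. APOB had 739 called sites among 6011 positions with a depth of at least 10. This is 12.3%, beside 26.7% over all positions of that depth in all genes, and as the gene was chosen on this contrast nothing is read from it. Of the 739 sites, 162 were in exon 26, 395 in the other exons and 182 in the introns. Per guanine, adenine or cytosine of the region, this is 2.92%, 7.95% and 0.901%. The regions differ in depth, and their called shares lay closer together among listed positions of like depth. At a mean depth of 40 to 59 reads, 13.2%, 14.3% and 12.6% of listed positions were called in exon 26, other exons and introns. At 60 to 99 reads it was 17.6%, 25.6% and 25.6%. The part of depth in these shares was not tested further. With a minimum of 5 reads with T, the counts were 36, 136 and 26. Without replicate 1, 2 or 3 there were 1264, 1390 and 1021 called sites in the gene.

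The called sites were spread unevenly over the elements of the gene. All exons but exon 28 held at least 1, and 18 of the 28 introns did. Intron 4 alone held 55, and the 5 introns with most sites held 128 of the 182. Exons 5 and 15 had the most per length, with 16.2 and 15.3 called sites per 100 nt, against 2.14 in exon 26. Their median depths in replicate 1 were 86 and 104 reads. The 5′ UTR held 4 called sites, and the 3′ UTR held 0 among 10 positions with sufficient depth. In introns, 73 sites lay within 200 nt of an exon and 109 farther away, which is 1.03% and 0.829% of the guanines, adenines and cytosines there. Listing was denser near exons as well, at 15.9% against 12.1%. Of the listed positions, 73 of 1120 were called near exons and 109 of 1589 farther away, so the higher density near exons is not seen among listed positions.

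In exon 26, called sites were denser on the 5′ side of the editing position, with 92 sites in 2321 nt against 70 in 5250 nt on the 3′ side. The second step of 1000 nt from the exon's 5′ end had the highest density, with 6.59% of its guanines, adenines and cytosines called. The last step had 0.743%. Depth moved with this pattern, with medians of 48, 44 and 63 reads in the second step and of 22.5, 22.5 and 30 in the last, and its part was not tested.

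**Figure D4:**
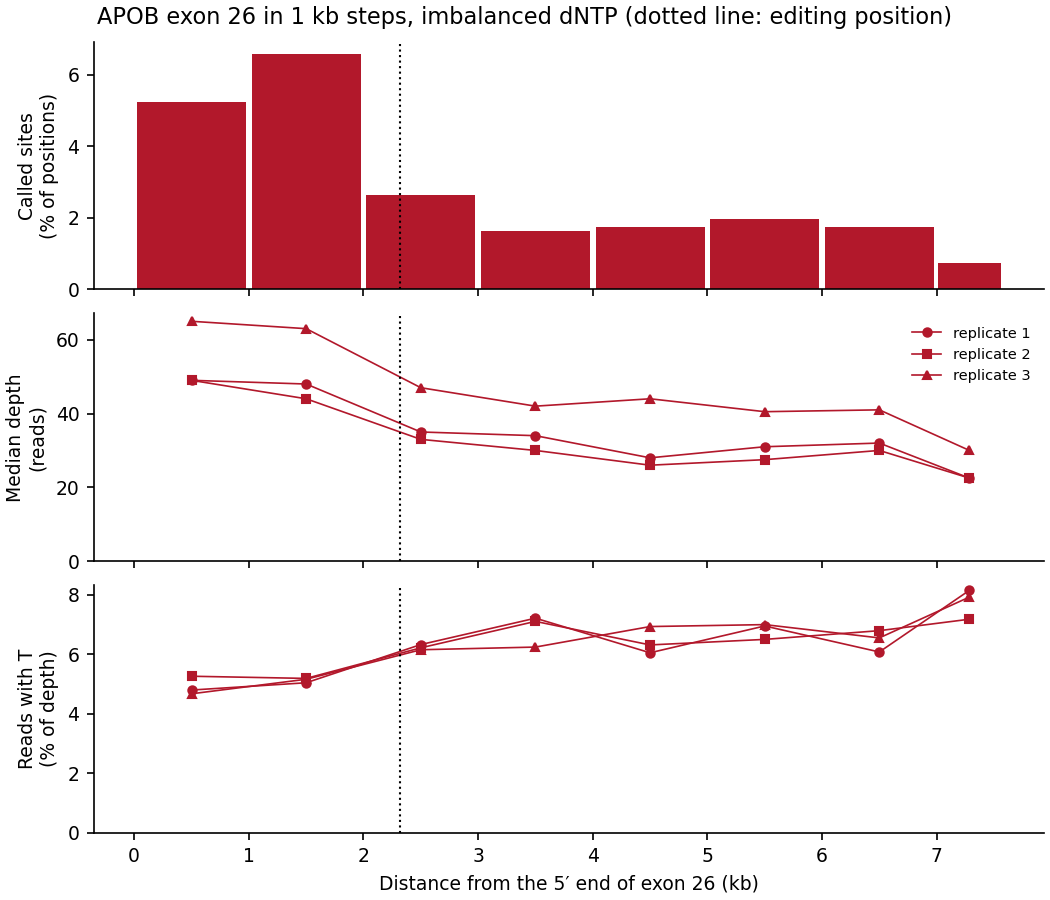
APOB exon 26 in steps of 1000 nt from its 5′ end (the last step is shorter), under imbalanced dNTP: called sites in percent of guanines, adenines and cytosines (top), median depth in reads (middle) and reads with T in percent of the depth (bottom), with 1 line per replicate. The dotted line marks the editing position; called sites and depth are highest on its 5′ side, and the share of reads with T is lowest there.

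Guanine was the most frequent base among called sites in each region. In exon 26, 105 of 162 called sites were guanines (64.8%), 33 were adenines and 24 were cytosines. Guanines made up 25.8% of the guanine, adenine and cytosine positions of the exon and 32.2% of the listed ones. In the introns 71.4% of called sites were guanines, and in the other exons 50.4%. Among the 32 called sites of exon 26 whose ratio reached 0.1 in each replicate, 26 were guanines. Calls in single libraries had a lower share of guanines, with 39.8%, 40.9% and 36.2% in exon 26 for replicates 1, 2 and 3 (39.0% ± 2.47, SD). The share of guanines thus depended on how many libraries a call had to pass.

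The share of reads with T, on which the calls rest, was also highest at guanines. In exon 26 and the introns it was higher at cytosines than at adenines. Fewer cytosines than adenines were called there, but these regions also have fewer cytosines. In exon 26, 1.44% of cytosines and 1.35% of adenines were called, and in the introns 0.422% and 0.336%. In exon 26, guanines with a depth of at least 10 had 7.03%, 7.24% and 6.59% reads with T. Adenines had 4.92%, 5.20% and 5.18%, and cytosines had 5.41%, 5.29% and 5.56%. Guanines were above both other bases in every library, by more than the spread between replicates. In the introns guanines had 8.02% ± 0.157, adenines 6.03% ± 0.0355 and cytosines 6.32% ± 0.122 (SD, n = 3).

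**Figure D5:**
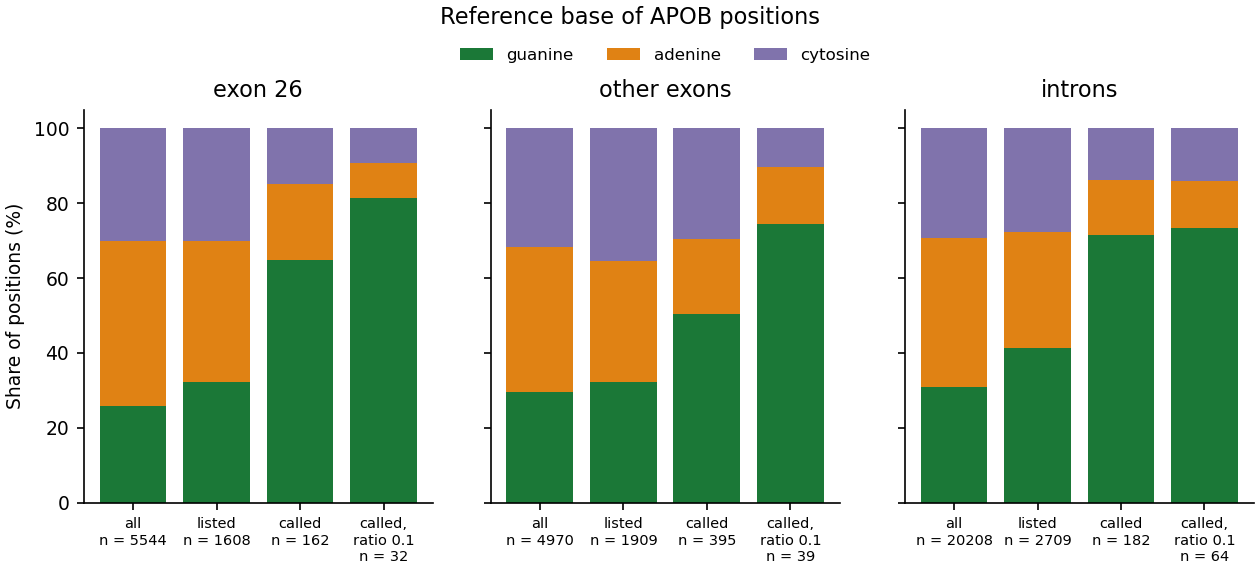
Reference base of APOB positions in percent, in exon 26, other exons and introns, for all guanine, adenine and cytosine positions, listed positions, called sites, and called sites whose mutation ratio reached 0.1 in each replicate. The share of guanine rises from all positions (25.8% in exon 26) to called sites (64.8%) in each region.

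The neighbours of called sites were often uridines. In exon 26, 54 of 162 called sites (33.3%) stood between uridines on both sides, as did 6.20% of all guanines, adenines and cytosines and 11.1% of positions of sufficient depth that were not called. In the introns it was 51.6% of called sites, 8.74% of all positions and 22.1% of those of sufficient depth that were not called. In the other exons it was 17.7%, 5.65% and 7.45%. Over the whole gene, the most frequent triplet was UGU, with 153 called of 754 occurrences (20.3%). UGC followed with 90 of 616 (14.6%) and UGA with 82 of 964 (8.51%). Sites of 1 transcript share reads and are no independent replicates, so these shares are given without a test.

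Called sites of exon 26 also differed by position in the codon. At the first position 93 of 2038 guanines, adenines and cytosines were called (4.56%), at the second 28 of 1757 (1.59%) and at the last 41 of 1749 (2.34%). For guanines alone the shares were 9.75%, 4.51% and 5.59%. In the other exons guanines were called at 16.7%, 9.65% and 14.2% of the first, second and last codon positions.

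Called sites lay closest together in the other exons. There 333 of 395 (84.3%) had another called site within 10 nt, and 73 had one at the very next base. In exon 26 it was 71 of 162 (43.8%), with 0 at the next base, and in the introns 58 of 182 (31.9%), with 2. The other exons were also the deepest region, and neighbouring sites are covered by the same reads.

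The guanine of codon 2401, at 21009667 in exon 26, had the highest mean ratio of the sites named there. It carried T in 10 of 69, 14 of 58 and 13 of 86 reads of replicates 1, 2 and 3 under imbalanced dNTP. Under balanced dNTP it carried T in 0 of 112, 0 of 87 and 1 of 113 reads. Every imbalanced dNTP library was above every balanced one, with a mean of 17.9% ± 5.40 (SD, n = 3). As the sites were named for these ratios, no test is given for them.

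The guanine of codon 1440 at 21012550 carried T in 10 of 72, 15 of 72 and 11 of 68 reads. That of codon 3500 at 21006370 carried T in 5 of 53, 11 of 51 and 9 of 57. These and the guanines of codons 1932 and 1465 were not listed under balanced dNTP. The last pair averaged 14.5% ± 7.13 and 14.1% ± 3.49 (SD, n = 3), and the means of the 5 sites ranged from 14.1% to 17.9%, a range smaller than the SD of the highest. The highest adenine, the first base of codon 2010 at 21010840, carried T in 7 of 80, 7 of 68 and 12 of 95 reads. The highest cytosine, at 21011075 in codon 1931, carried T in 4 of 55, 5 of 58 and 12 of 88 reads and lies 3 nt from the guanine of codon 1932. Both had lower means than the 5 guanines, at 10.6% ± 1.95 and 9.84% ± 3.35.

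Sites in introns were named at a depth of at least 20 reads, and those in exons at 50, so that their ranks are not compared. The highest in introns, the guanine at 21025861 in intron 15, carried T in 6 of 22, 7 of 23 and 11 of 36 reads, a mean of 29.4% ± 1.86 (SD, n = 3). Its Wilson 95% interval in replicate 1 was 13.2% to 48.2%, and such intervals cover counting error only. The other introns' sites named by this rule, in introns 23, 8, 2 and 4, were guanines as well, with means from 18.5% to 22.2%. The highest in the other exons, the guanine at 21033322 in exon 9 (codon 367), carried T in 10 of 53, 17 of 58 and 13 of 68 reads, and in 0 of 140, 0 of 85 and 1 of 151 under balanced dNTP. The adenine at 21037252 in exon 6 (codon 181), 4 nt from the exon's border, carried T in 10 of 79, 18 of 69 and 22 of 123 reads.

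The deepest called sites of APOB were in exon 17, and their ratios were low. The adenine at 21023661 carried T in 10 of 150, 8 of 140 and 14 of 196 reads, a mean of 6.51% ± 0.727 (SD, n = 3). The guanines at 21023659 and 21023670 averaged 4.57% ± 0.822 and 5.33% ± 0.825. These ratios had smaller errors than those of the sites with the highest ratios.

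The editing position was not a called site. Under imbalanced dNTP its cytosine was read as T in 3 of 58, 0 of 33 and 2 of 47 reads of replicates 1, 2 and 3. The replicates thus ranged from 0% to 5.17%. Summed over the libraries, 5 of 138 reads had T (3.62%, Wilson 95% interval 1.56% to 8.20%). The position was not listed under balanced dNTP, and the deposited table does not give its reads. The 6 positions listed under balanced dNTP within 15 nt of it were listed with 1 read with T each, summed over the libraries, at depths of 75 to 83, 58 to 72 and 74 to 98 reads in replicates 1, 2 and 3.

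The value of the editing position lay within the range of the listed positions around it. Of the 7 other positions listed under imbalanced dNTP within 15 nt, 6 had the same or a higher share of reads with T, and the range was 3.57% to 11.0%. The adenine on its 5′ side, the last base of codon 2179, carried T in 2 of 57, 6 of 35 and 2 of 48 reads. The adenine on its 3′ side carried T in 3 of 60, 0 of 31 and 2 of 49 reads, and edgeR gave it an adjusted p of 0.17. Neither was called. Among the 248 listed cytosines of exon 26 that 30 or more reads covered in each imbalanced dNTP library, the median share of reads with T was 4.22% (quartiles 3.12% and 5.70%), and 93 were at or below the editing position. Only 483 of the 1667 cytosines of exon 26 were listed, and listing needed at least 3 reads with T in some library. The positions compared here were thus selected for reads with T, as was the editing position. Under imbalanced dNTP alone, an edited share within the interval above cannot be told apart from the ratio of other listed cytosines.

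The edgeR fit covered 32284 positions of all genes that both tables list and that all 6 libraries cover with 10 or more reads, and 1058 of them were in APOB. Of these, 410 had a mutation ratio that was higher under imbalanced dNTP at an adjusted p under 0.05 (38.8%), beside 73.9% of all positions tested. Nothing is read from this, because APOB was chosen on this contrast and positions had to carry T in both tables. By region, 70 of 255 positions passed in exon 26, 250 of 468 in the other exons and 90 of 335 in the introns. The median log2 difference was 2.90 in exon 26, 3.29 in other exons and 2.87 in introns, and 3.94 over all positions. No position of APOB was lower in edgeR, 0 had a lower ratio at an unadjusted p under 0.05, and DESeq2 and Fisher's exact test also gave 0. Without the replicate block 673 positions of APOB passed. Without replicate 1, 2 or 3 of both groups, 75, 102 and 71 passed.

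FN1 and A2M, the genes of the secreted proteins fibronectin and alpha-2-macroglobulin, were compared with APOB. Exons of APOB, exon 26 included, were 1.78, 1.79 and 1.73 times as deep as its introns in replicates 1, 2 and 3 under imbalanced dNTP. In FN1 the ratios were 2.89, 2.82 and 2.85, and in A2M 2.38, 2.38 and 2.35. APOB was below both in every library, with differences of -0.69 and -0.43 on the log2 scale, each with an exact paired permutation p of 0.25. Exon 26 lowers the value of APOB. Its other exons had medians of 65, 56 and 83 reads, against 27, 24 and 37 in its introns. The medians cover listed positions only, and introns had 9.50 listed positions per 100 nt in APOB, 5.04 in FN1 and 11.2 in A2M. The longest exon has 762 nt in FN1 and 229 nt in A2M. Introns had a higher share of reads with T than exons in all 3 genes, by 1.91 percentage points ± 0.117 in APOB, 3.25 ± 0.174 in FN1 and 2.12 ± 0.264 in A2M (SD, n = 3). The introns were the less deeply covered part of each gene, and in APOB the ratio of listed positions fell with depth. FN1 and A2M were not compared at like depth, and the part of depth in these differences was not tested. Guanines made up 54.6% of exonic called sites in APOB, 57.2% in FN1 and 49.9% in A2M.

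Of 26 genes of lipoprotein assembly, secretion and uptake, 12 had positions listed under imbalanced dNTP. Among those with a called site were APOA2, an apolipoprotein of HDL, and LRP1, an endocytic receptor of lipoprotein remnants. P4HB, a subunit of the lipid transfer protein complex, was another. APOA2, LRP1 and P4HB had 1 each, of 30, 4 and 33 positions with a depth of at least 10. Over all genes 26.7% of such positions were called. MTTP, which encodes the subunit that loads lipid onto apolipoprotein B, had no listed position in either table. The median depth of APOB was 36, 33 and 49 reads.

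Of 8 genes that encode editing enzymes and their partners, 1 had a listed position under imbalanced dNTP and 3 under balanced dNTP. APOBEC1 and the cofactor gene RBM47 had none in either table. A1CF, which encodes the other cofactor, had 0 and 6. SYNCRIP, which encodes a regulator of the complex, had 1 and 25. A gene without listed positions can still be transcribed, since listing needs both depth and reads with T.

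Markers of hepatocytes were checked against the label of the cells. Of 12, 10 had listed positions under imbalanced dNTP, and ALB and AFP, the albumin and alpha-fetoprotein genes, had 115 and 100 called sites, which is 16.5% and 10.5% of their positions with a depth of at least 10, beside 26.7% in all genes. Of the 12 markers, 6 had a called site. HNF4A and FGA had 6 and 13 listed positions, at median depths of 6, 7 and 8 and of 7, 8 and 13 reads, and no called site. APOA1 and APOH had no called site either. FGB had no listed position in either table and TTR had 3 under balanced dNTP alone. Of 9 markers of blood, endothelium, fibroblasts and intestine, VIL1 and LGR5 had 12 and 18 listed positions, at median depths of 7.5, 6 and 11 and of 7, 7 and 11.5 reads, and no called site. The other markers, PTPRC, CD68, PECAM1, VWF, COL1A1, COL3A1 and CDX2, had no listed position.

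Each gene's share of the depth was also taken over only the positions listed in both tables. The gene whose share varied most like that of APOB over the 6 libraries was A2M, with a root mean square difference of 0.01 on the log2 scale, followed by RBM39 with 0.02 and FGL1 with 0.04. The likeness was taken over 15 other protein-coding genes with at least 100 positions listed in both tables. APOB deviated from its own mean by -0.10, -0.05 and 0.18 in replicates 1, 2 and 3 under imbalanced dNTP, and by -0.10, -0.08 and 0.15 under balanced dNTP. Replicate 3 was the highest in both groups for APOB and for all 15 genes compared with it.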

How the data were processed

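Reads were trimmed by the authors (Cutadapt), deduplicated through their unique molecular identifiers (BBMap), aligned to hg38 (TopHat2) and piled up by base (JACUSA). The deposited tables hold raw counts of each base at each position in each library, which the authors did not normalize. The depth is the sum of A, C, G and T, and the mutation ratio is T over depth.

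Exons follow GENCODE release 44 (MANE Select). Sites were called by the criteria given above, which are those of the study's methods without the spike-in background. The quasi-likelihood test of edgeR 4.0.16 (R 4.3.3) was run on reads with and without T, and p-values were adjusted by Benjamini-Hochberg over all positions. Its design had a term for each library, a replicate block for the share of reads with T and a term for imbalanced dNTP. The alternative tool was DESeq2 1.42.0. Regions were compared by exact two-sided sign-flip tests over 3 pairs.

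Same-numbered libraries come from the same ligated RNA, and their depth deviations correlated at 0.746, 0.590 and 0.871 over 24432 positions with a depth of at least 50. Replicates 1 and 2 were not told apart by this, since their crossed pairs correlated at 0.699 and 0.599. The pairing rests on the labels.

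Positions named were, in each region, the 5 called sites with the highest mean ratio (depth at least 50, introns 20), the highest of each base in exon 26, the editing position with its neighbours and the 3 deepest called sites, leaving out positions with a balanced dNTP ratio of at least 0.1. The gene and the lists were chosen with earlier results of these data known. Python 3.11.15 was used for the other steps. Results of some genes on the lists are not reported here.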

Additional observations from a re-analysis of the deposited data

How the results depend on the processing

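The count of called sites in APOB was 739, and 371 at a depth of at least 50, 198 with at least 5 reads with T, 135 with a mutation ratio of at least 0.1, and 183 where the position had to be listed under balanced dNTP; without each replicate it ranged from 1021 to 1390. With the same alternatives the share of guanines among called sites of exon 26 was 67.3%, 86.1%, 81.25% and 76.9%, and 52.9% to 58.9% without each replicate, against 64.8%. Fewer positions can pass a stricter criterion, and more can pass when fewer replicates must. The count of APOB positions higher in edgeR, 410, was 673 without the replicate block, 224 at a depth of at least 50, 77 with Fisher's exact test in each replicate and 71 to 102 without each replicate; Fisher's test called 15128 positions of all genes, against 23850.

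The mutation ratio of exon 26 minus introns reversed to 0.577 percentage points with unlisted positions at 0. That of exon 26 minus other exons reversed to -0.287 with this setting and to -0.432 at 30 to 60 reads, a setting chosen after the data were seen; the cause was not tested. At a minimum depth of 50 they were -0.547 and 0.327, and over called sites alone the latter was 2.61. The other alternatives for these results kept the direction of the mean, and 3 pairs cannot give a p below 0.25. The unpaired exact permutation test of reads with T, without the replicate block, gave 0.1, the smallest for 3 against 3. At the depths of APOB, a ratio rests on a few reads with T.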
